A study of Mus musculus with 10 samples.

Results

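The hexosamine pathway was followed in pancreatic tumors of mice through 10 genes, chosen by matching the Ensembl identifiers of the deposited table to a list of symbols, out of 55359 genes in all. Luciferase-expressing K8484 cells of the KPC model, a mouse line of pancreatic cancer that carries Trp53 R172H/+ and Pdx1-Cre, had been injected into the pancreas of C57BL/6 mice (C57BL/6 J in the methods) at 10 weeks of age, so that every tumor came from the same line and shared these alleles. The 5 normoglycemic mice drank regular water (CTRL) and the 5 hyperglycemic mice drank water with 30% dextrose (D30), both for 14 days. Sample titles use the word PDX, although the source given is the K8484 line. The labels name no drug for either group. For the orthotopic experiments the methods give males and females in equal numbers, but the sex is not given by column.

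The hexosamine pathway draws fructose-6-phosphate away from glycolysis and joins it with nitrogen from glutamine, acetyl-CoA and UTP. Its product, UDP-GlcNAc, is the sugar donor for N-glycans, hyaluronan and heparan chains, and for O-GlcNAc, a single sugar that OGT places on nuclear and cytosolic proteins and OGA takes off again. In pancreatic cancer the pathway is known as one of the branches of glucose metabolism that tumor cells draw on.

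Values are normalized counts, that is, reads corrected by a size factor for each tumor, and tumors are named by their columns (N1, N2, N4, N5 and N6 for CTRL; T1, T2, T4, T5 and T7 for D30, assigned as the only other group). Recovered reads ranged from 29192261 to 42122304 per tumor. Differences were tested with limma on log2(normalized count + 1) over 24560 genes, and a gene was called at an adjusted p under 0.05 (Benjamini-Hochberg). As no label ties a column to one animal, p values measure the spread between these tumors. T4 was the only tumor with reads of the Y-linked genes Ddx3y, Eif2s3y, Kdm5d and Uty (841 reads, against 0 in each of the other 9, which allows up to 3), and results that rest on it are given with and without it. Keratins, Epcam and Cdh1, the markers of the epithelial tumor cells, summed to 209890 to 335472 normalized counts in CTRL and 341271 to 475520 in D30 tumors, without overlap, although Epcam was at 0 in some tumors. Of these 6 markers, 5 had positive log2 fold changes and 1 a negative one (median 0.62, none called). Endothelial markers (Pecam1, Cdh5, Kdr, Tek and Vwf) summed to 10275 to 17844 in CTRL and 4906 to 9409 in D30 tumors, again without overlap. Among these 5 markers, 4 had negative log2 fold changes and 1 a positive one (median -1.11, 1 called lower with limma). The sums of the fibroblast and macrophage markers overlapped between the groups, but 10 of 10 fibroblast markers had negative log2 fold changes (median -0.86, none called), as did 7 of 9 macrophage markers (median -0.80, 2 called lower with limma). All 5 neutrophil markers had positive values (median 1.72, none called), and 2 of 4 islet markers were called lower, with sums of 5.31 to 1277 in CTRL against 0 to 15.0 in D30. The part of these cell types in the results on the 10 genes was not tested. Acinar markers ranged from 35.8 to 50813 in CTRL and from 19.5 to 4223 in D30 tumors, highest in N6 and N2. In such bulk samples, fewer cells of a type and less RNA per cell cannot be told apart.

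Of the 10 genes, Uap1 alone was differentially expressed, where 2.76% of all genes tested were called, 1.4% higher and 1.36% lower in D30. Uap1 encodes the enzyme that makes UDP-GlcNAc in the last step of the pathway, and it was higher in D30 tumors. Without T4, 4 of the 10 genes were called, where 6.23% of all genes were (3.22% higher and 3% lower): Gfpt1 and Uap1 were higher, and Gnpda1 and Gnpda2, which undo the step of Gfpt1, were lower. Over all 10 tumors the groups did not overlap for Uap1, higher in D30, and for Gnpda1, lower in D30, and they did not overlap for 6.19% of all genes tested, 2.87% higher and 3.32% lower in D30. DESeq2 called 3 of the 10 genes and 8.07% of all genes, and edgeR called Uap1 and 2.61% of all genes. The median log2 fold change of the 10 genes was -0.028 and that of all genes tested -0.065, which became -0.27 with tumors scaled by library size alone.

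**Figure D1:**
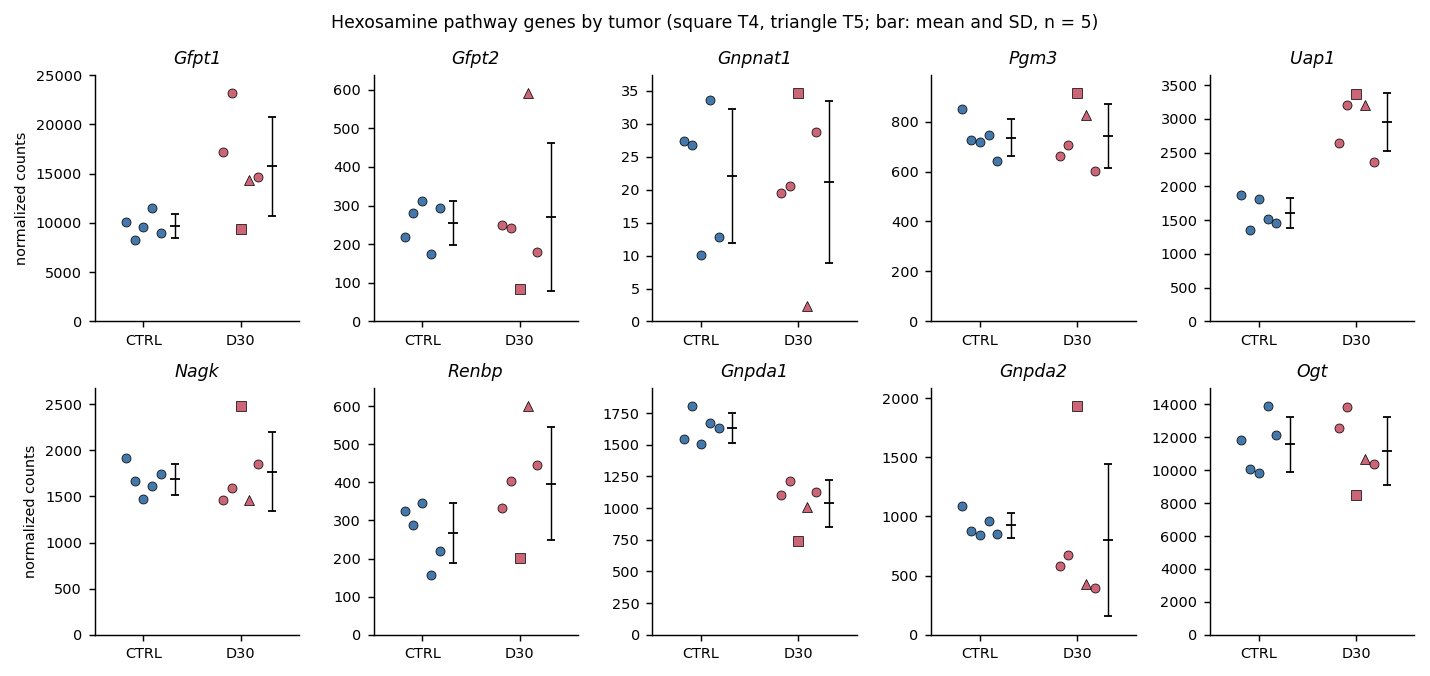
Normalized counts (y axes, from 0) of the 10 genes in each CTRL and D30 tumor, with T4 as a square, T5 as a triangle and a bar for the mean and SD (n = 5). The groups are apart for Uap1 and Gnpda1, and T4 lies away from the other D30 tumors for Gfpt1 and Gnpda2.

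Gfpt1 (ENSMUSG00000029992, chromosome 6, 87042846 to 87092197 in GRCm38) encodes the glutamine-dependent enzyme of the first and committed step. It had 10104, 8292, 9556, 11473 and 8980 normalized counts in the CTRL tumors N1, N2, N4, N5 and N6. In the D30 tumors T1, T2, T4, T5 and T7 it had 17188, 23212, 9340, 14351 and 14621. Thus 4 of the 5 D30 tumors exceeded every CTRL tumor, and T4 lay within the CTRL range. The means were 9681 ± 1207 (SD, n = 5) and 15742 ± 5051 (SD, n = 5), and the log2 fold change was 0.65 (SE, the standard error, 0.23, 95% interval 0.15 to 1.14, adjusted p = 0.164 from limma), which did not pass. It passed without T4, with a log2 fold change of 0.82 (SE 0.17, adjusted p = 0.0152), and with DESeq2 on all tumors (adjusted p = 0.0489). With library-size scaling it was 0.43 (adjusted p = 0.386).

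Gfpt2 (ENSMUSG00000020363, chromosome 11, 49794178 to 49838613) encodes the second isozyme of this step, best known from mesenchymal and neural cells. It had 219, 282, 312, 175 and 293 normalized counts in CTRL tumors, and 250, 243, 84.4, 592 and 181 in D30 tumors. The groups overlapped, with the lowest value in T4 and the highest in T5. The log2 fold change was -0.17 (SE 0.42, 95% interval -1.07 to 0.73, adjusted p = 0.879 from limma), and it was 0.18 without T4. Summed fibroblast markers were 32313 normalized counts in T4, the lowest of all tumors, and 86297 in T5, within the CTRL range of 80408 to 142607. The part of fibroblasts in the spread of Gfpt2 was not tested.

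The isozymes were set against each other per kilobase of merged exons, a ratio that does not depend on the size factor. Gfpt2 stood at 3.90%, 6.12%, 5.87%, 2.75% and 5.87% of Gfpt1 in CTRL tumors, and at 2.62%, 1.88%, 1.63%, 7.43% and 2.23% in D30 tumors. Gfpt1 was thus the main isozyme in all 10 tumors, and 4 of 5 D30 tumors had a lower share of Gfpt2 than any CTRL tumor. The log2 ratio was -4.41 ± 0.50 (SD, n = 5) for CTRL and -5.22 ± 0.86 (SD, n = 5) for D30 tumors, and the difference of -0.82 was not larger than the spread (two-sided exact permutation test, p = 0.119, where 0.00794 is the smallest that 5 against 5 tumors allow). Without T5 the difference was -1.18 (exact permutation test, p = 0.0159), and with any other single tumor left out it was -1.01 to -0.64 (exact permutation tests, p from 0.0635 to 0.214).

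Gnpda1 (ENSMUSG00000052102, chromosome 18, 38327535 to 38339003) and Gnpda2 (ENSMUSG00000029209, chromosome 5, 69573108 to 69592340) encode glucosamine-6-phosphate deaminases, which return the product of the first step to fructose-6-phosphate and ammonia. Gnpda1 had 1546, 1804, 1509, 1670 and 1633 normalized counts in CTRL tumors. It had 1103, 1211, 737, 1005 and 1128 in D30 tumors. Every D30 tumor lay below every CTRL tumor, and T4 was the lowest. The means were 1633 ± 116 (SD, n = 5) and 1037 ± 183 (SD, n = 5), with a log2 fold change of -0.67 (SE 0.18, 95% interval -1.06 to -0.29, adjusted p = 0.0651 from limma), which narrowly did not pass. Gnpda1 passed without T4 (log2 fold change -0.55, adjusted p = 0.0271), with DESeq2 (adjusted p = 0.00407), with library-size scaling (adjusted p = 0.0429) and with the minimum mean raised to 10 normalized counts (adjusted p = 0.0492). It did not pass with edgeR (adjusted p = 0.0748). Nor did it pass with any other single tumor left out (adjusted p from limma 0.0696 without T5 to 0.198 without N2).

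Gnpda2 had 1087, 874, 846, 962 and 848 normalized counts in CTRL tumors, and 579, 677, 1932, 433 and 391 in D30 tumors. T4 had the highest value of all tumors, and the other 4 D30 tumors lay below every CTRL tumor. Over all tumors the log2 fold change was -0.47 (SE 0.36, 95% interval -1.25 to 0.31, adjusted p = 0.544 from limma), and without T4 it was -0.86 (SE 0.19, 95% interval -1.26 to -0.45, adjusted p = 0.0195). The opposite-strand gene Guf1 shares 14.9% of the exon bases of Gnpda2. Guf1 was also highest in T4, at 2309 normalized counts, but close to the 2219 in N1, and how far reads were divided between both genes was not tested. Gnpda2 stood at 44.1%, 30.4%, 35.2%, 36.2% and 32.6% of Gnpda1 per kilobase in CTRL tumors, and at 33.0%, 35.1%, 165%, 27.0% and 21.8% in D30 tumors. Gnpda1 was the more abundant isozyme in 9 tumors, and Gnpda2 in T4. The difference in the log2 ratio was 0.20 (two-sided exact permutation test, p = 0.937), and without T4 it was -0.30 (exact permutation test, p = 0.127).

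**Figure D2:**
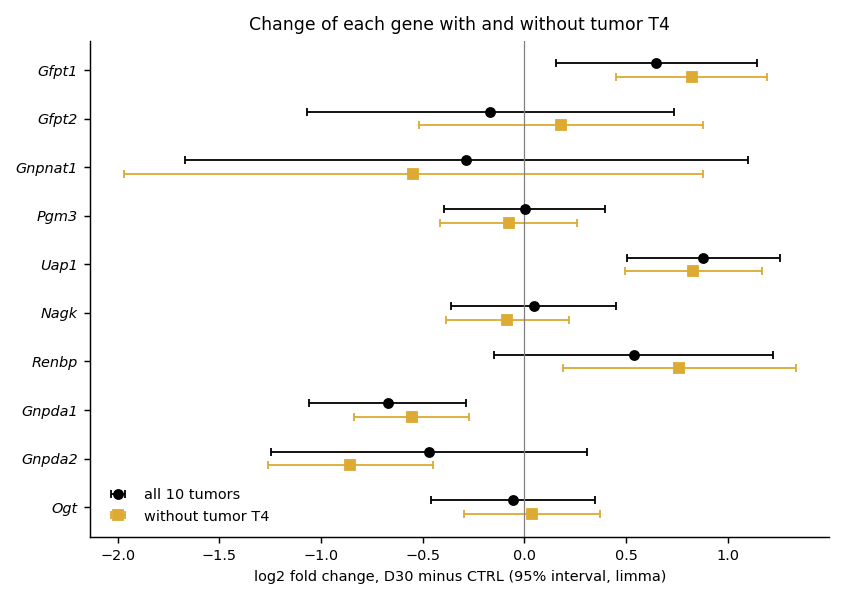
Log2 fold change from CTRL to D30 (x axis) of each gene with its 95% interval from limma, over all 10 tumors (black) and without T4 (yellow). Without T4 the intervals of Gfpt1, Uap1, Renbp, Gnpda1 and Gnpda2 lie to one side of 0, and those of the others include it.

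The middle steps are the acetylation by Gnpnat1 and the phosphate shift by Pgm3. Pgm3 (ENSMUSG00000056131, chromosome 9, 86554377 to 86571842) encodes the mutase that turns GlcNAc-6-phosphate into GlcNAc-1-phosphate. It had 849, 726, 716, 745 and 643 normalized counts in CTRL tumors, and 662, 708, 915, 825 and 601 in D30 tumors. The groups overlapped throughout, with a log2 fold change of 0.0020 (SE 0.18, 95% interval -0.39 to 0.40, adjusted p = 0.998 from limma). The interval leaves room for a change of up to about 0.40 on the log2 scale either way. Dop1a, on the other strand, shares 28.3% of the exon bases of Pgm3.

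Gnpnat1 (ENSMUSG00000037722, chromosome 14, 45376334 to 45404913) encodes the acetyltransferase that makes GlcNAc-6-phosphate. It was listed at 10.1 to 33.6 normalized counts in CTRL tumors, with a median of 26.7, and at 2.29 to 34.7 in D30 tumors, with a median of 20.6. The lowest value, 2 reads, was in T5. The log2 fold change was -0.28 (SE 0.64, adjusted p = 0.864 from limma), and it was 0.31 without T5. In GRCm38, 83.5% of its exon bases are also annotated as exons of other genes, chiefly of Styx on the opposite strand, which had 408 to 732 normalized counts in CTRL and 356 to 1347 in D30 tumors. Whether reads were counted by strand was not given in the sources used here, so that the level of Gnpnat1 is uncertain.

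Uap1 (ENSMUSG00000026670, chromosome 1, 170141938 to 170174957) encodes the pyrophosphorylase that joins GlcNAc-1-phosphate and UTP into UDP-GlcNAc. It had 1874, 1353, 1808, 1513 and 1465 normalized counts in CTRL tumors. It had 2639, 3197, 3370, 3201 and 2364 in D30 tumors. All D30 tumors exceeded all CTRL tumors, T4 and T5 included. The means were 1603 ± 226 (SD, n = 5) and 2954 ± 430 (SD, n = 5), a 1.84-fold difference, and Uap1 rose by a log2 fold change of 0.88 (SE 0.17, 95% interval 0.50 to 1.26, adjusted p = 0.0175 from limma). With edgeR the adjusted p was 0.0190 and with DESeq2 3.38e-05, and with library-size scaling the log2 fold change was 0.66 (adjusted p = 0.0498). The call was lost without N2 (adjusted p = 0.0727), N5 (0.0565) or N6 (0.0665), where the log2 fold change stayed between 0.82 and 0.86.

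Since the sum of the epithelial markers was also 1.66-fold higher in D30 tumors, although no single marker was called, the 3 genes with the clearest differences were set against that sum. Uap1 had 5.39 to 8.64 normalized counts per 1000 of the epithelial markers in CTRL tumors, with a median of 6.32, and 6.05 to 9.37 in D30 tumors, with a median of 6.73. Gfpt1 had 28.5 to 54.7 in CTRL and 22.6 to 68.0 in D30 tumors. On this scale both overlapped between the groups. Gnpda1 had 4.50 to 8.43 in CTRL and 1.78 to 3.55 in D30 tumors. These ranges could not overlap, since in D30 tumors Gnpda1 was lower and the marker sum higher, each without overlap. For Gnpda1 this scale therefore decides nothing about the epithelial share. The part of the epithelial share in the rise of Uap1 was not tested further.

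As examples of regulatory sequence of the forward pathway, the 250 bases before the RefSeq start (GRCm38.p6) are shown for Gfpt1 and Uap1, the first and the last step, 5′ to 3′ on the strand of the gene. Capitals mark CCACG on either strand, the half-site that the stress factors XBP1 and ATF6 are known to read.
Gfpt1, chr6:87042596-87042845, plus strand: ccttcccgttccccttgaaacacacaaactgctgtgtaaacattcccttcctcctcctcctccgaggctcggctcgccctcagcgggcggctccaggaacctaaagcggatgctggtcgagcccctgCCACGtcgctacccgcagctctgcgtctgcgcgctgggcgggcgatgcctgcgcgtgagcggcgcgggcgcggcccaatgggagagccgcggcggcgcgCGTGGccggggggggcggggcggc
Uap1, chr1:170174965-170175214, minus strand: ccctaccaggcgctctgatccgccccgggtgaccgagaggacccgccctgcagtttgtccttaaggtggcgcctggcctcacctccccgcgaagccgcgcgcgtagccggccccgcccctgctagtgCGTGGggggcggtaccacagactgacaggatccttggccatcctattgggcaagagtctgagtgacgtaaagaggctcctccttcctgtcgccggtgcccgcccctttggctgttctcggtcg
Gfpt1 held CCACG 2 times and Uap1 1 time. The table had promoters of 8 of the 10 genes, of which 2 held the motif, whereas 28.3% of all promoters in the table did. Neither the E-box CACGTG, which can overlap CCACG and stood in 6.02% of all promoters, nor TGATGNAA, the element read by ATF4 and CHOP (3.45% of all promoters), was found in any of the 8. No promoter was listed for Gnpnat1 and Gnpda1.

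Nagk and Renbp handle free amino sugars. Nagk (ENSMUSG00000034744, chromosome 6, 83794982 to 83804018) encodes the kinase that returns salvaged GlcNAc to the pathway. It had 1920, 1669, 1466, 1615 and 1746 normalized counts in CTRL tumors, and 1459, 1588, 2479, 1463 and 1848 in D30 tumors. The groups overlapped, with the highest value in T4, and the log2 fold change was 0.046 (SE 0.19, 95% interval -0.36 to 0.45, adjusted p = 0.930 from limma). Renbp (ENSMUSG00000031387, chromosome X, 73922121 to 73930850) encodes renin-binding protein, an epimerase between GlcNAc and N-acetylmannosamine. It had 325, 287, 346, 157 and 220 normalized counts in CTRL tumors, and 333, 404, 200, 600 and 446 in D30 tumors. In D30, 4 of 5 tumors lay above the CTRL median and T4 below it. The log2 fold change of 0.54 did not pass (SE 0.32, 95% interval -0.15 to 1.22, adjusted p = 0.417 from limma), nor did that of 0.76 without T4 (adjusted p = 0.109).

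Ogt (ENSMUSG00000034160, chromosome X, 101640060 to 101684351) encodes the transferase that sets O-GlcNAc on proteins. It had 11822, 10104, 9851, 13898 and 12164 normalized counts in CTRL tumors, and 12562, 13852, 8476, 10676 and 10364 in D30 tumors. The groups overlapped and T4 was lowest, with a log2 fold change of -0.057 (SE 0.19, 95% interval -0.46 to 0.35, adjusted p = 0.910 from limma). Oga, the opposing hydrolase and not among the 10 genes, had 6080 to 7779 normalized counts in CTRL tumors against 6725 to 12496 in the D30 group, highest in T5, and did not pass either (log2 fold change 0.23, adjusted p = 0.596).

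**Figure D3:**
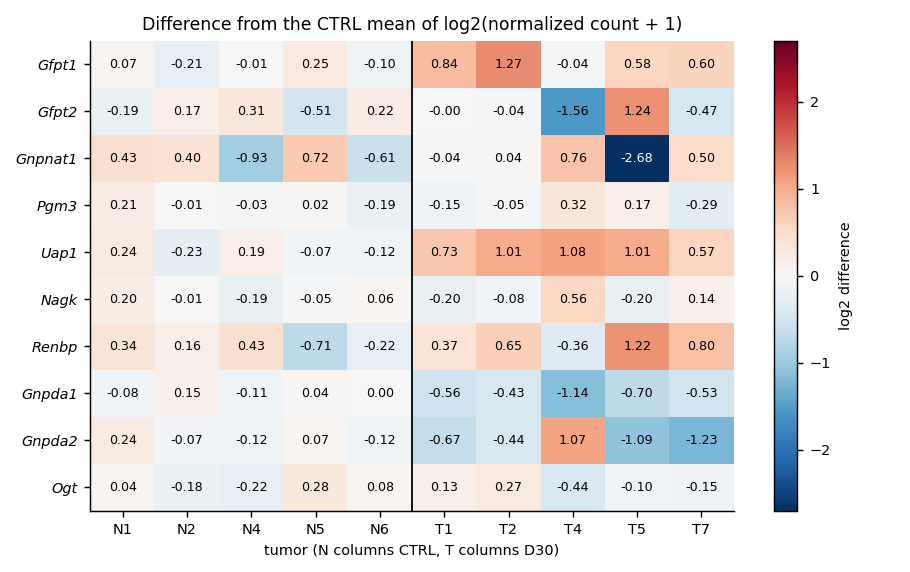
Difference of each tumor from the CTRL mean on the scale of log2(normalized count + 1), for the 10 genes (rows) in CTRL (N) and D30 (T) tumors (columns). Uap1 is above 0 and Gnpda1 below 0 in all D30 tumors, while T4 has the opposite sign from the other D30 tumors for Gfpt1, Renbp and Gnpda2.

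Compared between genes per kilobase of merged exons, Ogt and Gfpt1 were the most abundant of the 10 genes and Gnpnat1 the least. In CTRL tumors the order was Ogt (1438 ± 206 normalized counts per kilobase, SD, n = 5), Gfpt1 (961 ± 120), Uap1 (399.5 ± 56.4), Gnpda1 (379 ± 26.8), Nagk (360 ± 35.8), Pgm3 (164 ± 16.5), Gnpda2 (135 ± 15.0), Renbp (107 ± 31.3), Gfpt2 (45.8 ± 10.2) and Gnpnat1 (4.67 ± 2.15). Uap1, Gnpda1 and Nagk overlapped with their neighbours in this order, as did Pgm3, Gnpda2 and Renbp. In D30 tumors Gfpt1 came first (1563 ± 502), ahead of Ogt (1390 ± 258) in 4 of 5 tumors but with overlapping ranges, and Uap1 (737 ± 107) stood above Nagk (378 ± 91.5) and Gnpda1 (240 ± 42.5) without overlap. In CTRL tumors Ogt exceeded Gfpt1 in 5 of 5.

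**Figure D4:**
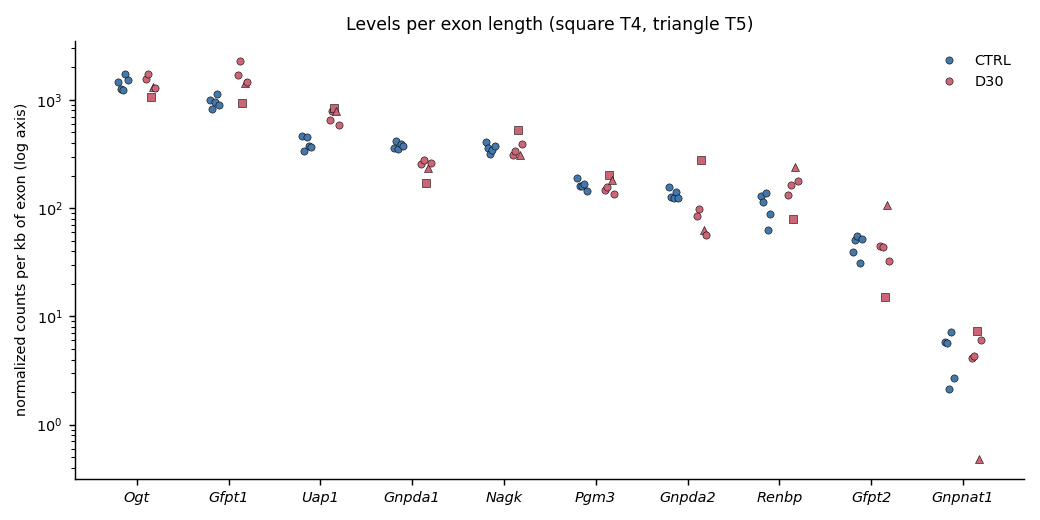
Normalized counts per kilobase of merged exons (log axis) of the 10 genes in each CTRL and D30 tumor, ordered by the CTRL mean, with T4 as a square and T5 as a triangle. In D30 tumors Gfpt1 reaches the level of Ogt, and Uap1 lies above Nagk and Gnpda1.

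Ratios of genes that act on neighbouring metabolites were looked at further, as pairs chosen after their values had been seen and therefore without a test. The ratio of Gfpt1 to Gnpda1 per kilobase, the forward against the reverse enzyme of the first step, was 2.80, 1.97, 2.71, 2.94 and 2.35 in CTRL tumors. It was 6.67, 8.21, 5.43, 6.11 and 5.55 in D30 tumors. T4 lay with the other D30 tumors in this ratio, although its Gfpt1 was at the CTRL level, because its Gnpda1 was the lowest of all tumors. Gnpda2, left out of the ratio, exceeded Gnpda1 in T4 (281 against 171 normalized counts per kilobase). For both deaminases together the ratio therefore does not place T4. The ratio of Uap1 to Pgm3 was 2.44 ± 0.28 (SD, n = 5) for CTRL and 4.47 ± 0.35 (SD, n = 5) for D30 tumors, with ranges of 2.09 to 2.82 and 4.12 to 5.05. Both ratios are independent of the size factors. However, Gnpda1 and Uap1 did not overlap between the groups by themselves, so that the gap in these ratios is no separate evidence.

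**Figure D5:**
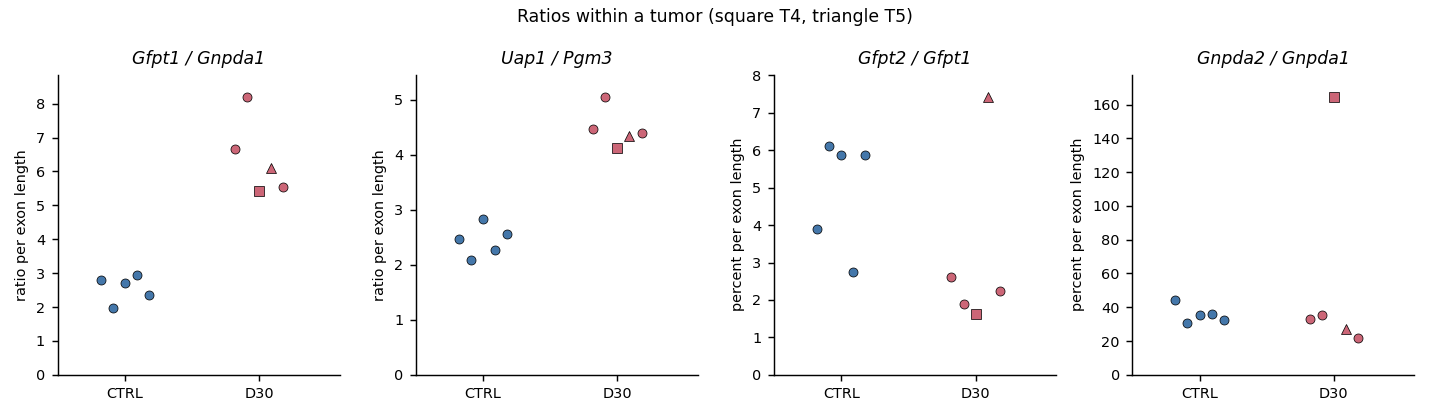
Ratios per exon length within each tumor (y axes, from 0), with the last 2 panels in percent, T4 as a square and T5 as a triangle. Gfpt1 over Gnpda1 and Uap1 over Pgm3 are apart between the groups, as Gnpda1 and Uap1 are alone. Gfpt2 over Gfpt1 is low in all D30 tumors but T5, and Gnpda2 over Gnpda1 is raised in T4.

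Another 56 genes that feed the pathway or use its product were followed as lists. None of them passed over all tumors with limma, and 14 had an unadjusted p under 0.05, where 17.3% of all genes tested did. With edgeR 1 passed (2.61% of all genes did) and with DESeq2 7 passed (8.07% of all genes). Without T4, 8 passed, 7 higher and 1 lower, where 3.22% of all genes were called higher and 3% lower. The groups did not overlap for 1 gene that was higher in D30 (2.87% of all genes), and for Gnptg, lower in D30 (3.32% of all genes).

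Of 10 genes of feeding and side steps, 7 were higher and 3 lower, with a median log2 fold change of 0.41, against -0.065 for all genes tested. The smallest p values were those of Slc35a3, the UDP-GlcNAc transporter of the Golgi (log2 fold change 0.88, adjusted p = 0.109 from limma), and Gpi1, which interconverts glucose-6-phosphate and fructose-6-phosphate (0.99, adjusted p = 0.109). Gpi1 had 10976 to 21410 normalized counts in CTRL and 15456 to 52655 in D30 tumors, lowest among D30 tumors in T4 and highest in T5. Without T4, Gpi1 (log2 fold change 1.20, adjusted p = 0.0165), the hexokinase Hk2 (1.54, adjusted p = 0.0166) and the glutamine synthetase Glul (0.63, adjusted p = 0.0438) were called higher, of which Hk2 and Glul were singled out after their values had been seen.

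Of 12 genes of UDP-GalNAc formation and the start of mucin-type O-glycans, 9 were higher, with a median of 0.30. Galnt12, a GalNAc transferase, had 26.6 to 94.7 normalized counts in CTRL tumors and 576, 677, 16.2, 256 and 511 in D30 tumors, so that all D30 tumors but T4 exceeded the CTRL tumors. Its log2 fold change was 2.22 (SE 0.84, adjusted p = 0.192 from limma) over all tumors and 3.18 without T4 (adjusted p = 0.000799). Over all tumors it was called by edgeR (adjusted p = 0.0464) and by DESeq2 (adjusted p = 0.000346). Galnt3, of the same family, had a log2 fold change of 0.45 (adjusted p = 0.174).

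Of 8 genes of the sialic acid branch, 6 were higher, with a median of 0.11. Cmas, which activates sialic acid, had a log2 fold change of 0.42 (adjusted p = 0.257 from limma; 0.0250 without T4), and the sialidase Neu1 one of 0.37 (adjusted p = 0.276). Of 11 genes that spend UDP-GlcNAc on N-glycans and their phosphate tags, 5 were higher and 6 lower, with a median of -0.11. Mgat4a, which adds a branch to N-glycans, had a log2 fold change of 0.91 (adjusted p = 0.166; 0.0284 without T4). Gnptg, a subunit of the enzyme that tags lysosomal proteins, had 1368 to 1535 normalized counts in CTRL and 844 to 1320 in D30 tumors (log2 fold change -0.47, adjusted p = 0.207).

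All 7 genes of hyaluronan and heparan synthesis had negative log2 fold changes, with a median of -0.25. Neither Has2 (-0.84, adjusted p = 0.198 from limma) nor Has3 (-0.95, adjusted p = 0.322), both hyaluronan synthases, passed. Of 6 lysosomal genes that release amino sugars, 2 were higher and 4 lower, with a median of -0.046. None of them passed over all tumors. Of the 3 O-GlcNAc enzymes Ogt, Oga and Eogt, which acts on secreted domains, 2 had negative values and none passed (the log2 fold change of Eogt was -0.24).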

How the data were processed

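RNA from 10 orthotopic tumors was measured by strand-specific paired-end sequencing. The submitters' processing notes name Trim Galore, STAR 2.7.0e, DESeq2 and the mouse build GRCm39, whereas the methods name hg38. The study's software list, outside the methods, also names RSEM, which divides reads shared between overlapping genes by estimate. Whether RSEM gave the deposited counts was not stated. Its settings and the annotation release were not given in the sources used here. The values deposited by the authors are a normalized signal, namely read counts over a size factor of each tumor, and the table lists mouse Ensembl identifiers. Undoing that factor gave whole reads for every value (tolerance 0.01 read), 29192261 to 42122304 reads per tumor. Columns were assigned to groups by their letter (N or T) and to no single animal.

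Names, positions and merged exon lengths came from GENCODE M21 (GRCm38). It named 94.1% of the 55359 identifiers, and Oga was found under its older symbol Mgea5. The members and gene lists were chosen with earlier results of these data known. All 10 members were named in the text, together with the 2 genes of smallest p in each other list and any list gene that passed. Some items that meet this rule are not reported here. Limma 3.58.1 (R 4.3.3) with a mean-variance trend was fitted to log2(normalized count + 1) of the 24560 genes with a mean of at least 1. Benjamini-Hochberg adjustment covered all of these genes, and an adjusted p under 0.05 was a call. For single ratios an exact permutation test (two-sided) was used. EdgeR 4.0.16 and DESeq2 1.42.0 on the recovered reads, other pseudocounts, filters and scalings, and each tumor left out in turn were alternatives. Intervals cover the spread between tumors only.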

Additional observations from a re-analysis of the deposited data

Results flagged for a closer look

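In 24 groups of 5 tumors (10 genes and 2 ratios in CTRL and in D30), 2 values lay far from the others of their group, where chance gives about 1 in 20 groups. Gnpda2 had 1932 normalized counts in the D30 tumor T4, and 391 to 677 in the other D30 tumors. The log2 ratio of Gnpda2 to Gnpda1 per kilobase was 0.72 in the same tumor and -2.20 to -1.51 in the others. Both come from 1 value of Gnpda2 and are not independent.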

How the results depend on the processing

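The rise of Uap1 kept its direction in all 19 alternatives and its call in 16. Gfpt1, Gnpda1, Gnpda2 and Renbp also kept their direction in all of them. Called genes numbered 678 in all, 1982 with DESeq2 and 270 to 1530 with a tumor left out in turn (leaving out N2 and T4). Of the 10 genes, 1 was called, against 2 with a minimum mean of 10 and with library-size scaling, 3 with DESeq2, and 0 to 4 with a tumor left out (0 without N2, N5 or N6, and 4 without T4). Of the other 56 genes, none was called, against 1 with library-size scaling, 1 with edgeR, 7 with DESeq2 and 0 to 8 with a tumor left out. With T4 and T5 both left out, an alternative chosen after seeing the data, 2105 of all genes, 4 of the 10 and 14 of the 56 were called, and the ratios were -1.08 (Gfpt2 to Gfpt1) and -0.27 (Gnpda2 to Gnpda1). With a tumor left out the first ratio ranged from -1.18 to -0.64 and the second from -0.30 (without T4) to 0.43.

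Genes near 0 changed sign, and the cause was not tested. With a tumor left out, log2 fold changes ranged from -0.52 to 0.18 for Gfpt2, -0.55 to 0.31 for Gnpnat1, -0.077 to 0.074 for Pgm3, -0.084 to 0.11 for Nagk and -0.14 to 0.038 for Ogt. Gfpt2 was 0.060 with edgeR and 0.076 with DESeq2. Pgm3 was -0.22 with library-size scaling and -0.00019 with edgeR, and Nagk was -0.18 with library-size scaling. Without T4 and T5, Gnpnat1 was 0.17, Pgm3 -0.16, Nagk -0.046, Ogt 0.085 and Oga -0.012. No paired analysis was possible because the column numbers are not the replicate numbers of the labels. Reads limit Gnpnat1, with 2 to 38 per tumor. For the other 9 of the 10 genes at least 73 reads stood behind each value, and some of the other 56 genes had fewer, such as Galnt12 with 14 at its lowest.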
